A study of Homo sapiens with 6 samples.

Results

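The Eph receptor and ephrin genes form a family of receptor tyrosine kinases and of the membrane-bound ligands that these kinases bind on neighbouring cells. The 10 genes described here are EPHA1, EPHA2, EPHA3, EPHA4, EPHA7, EPHB2, EPHB3, EPHB4, EFNA1 and EFNB2. They were taken by gene symbol from the platform annotation of the deposited table, with 1 probe set per gene, the one with the highest mean over the 6 arrays. EPHB2 has no annotated probe set in that table and was not analysed here, which left 9 measured genes of 14884. Each of the 9 genes had 1 probe set, so no choice between probe sets was needed.

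Expression was measured in SKOV3, an established line of human ovarian carcinoma cells, kept for 11 days in McCoy's medium with 15% fetal bovine serum. In the 2D group (n = 3 arrays) the cells grew on attachment plates in medium without FP001. In the 3D group (n = 3 arrays) they grew on low-attachment plates in medium that held FP001, an additive known here by its code name, at 0.015% (w/v). Plate and additive were changed at the same time, so their effects cannot be told apart. All cells are of 1 line, and the labels do not say whether the 3 samples of a group were separate cultures, so the p-values speak of the spread between the arrays alone, part or all of which can be technical.

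Eph receptors and ephrins signal where cells touch. Class A receptors mainly bind A ephrins, which are held in the membrane by a lipid anchor, and class B receptors mainly bind B ephrins, which span the membrane and can pass a reverse signal into their own cell. Signals from these receptors reach the actin cytoskeleton, and the family is known for setting boundaries between cells, guiding axons and shaping vessels. EPHA2 is abundant in many epithelial tumours, ovarian carcinoma among them.

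Of the 9 measured genes, EPHA2 and EPHA4 fell and EFNA1 rose in 3D at an adjusted p under 0.05 (limma), whereas 6 did not pass. The call rate over all 14884 genes was 10% in either direction, 5.23% for higher and 4.77% for lower expression in 3D. The changes were small: the log2 changes, 3D minus 2D, of the 9 genes ran from -0.57 to 0.37, and their median was -0.22, beside a median of -0.01 over all genes. The largest member change in either direction was 1.48-fold. The groups did not overlap for 7 of the 9 genes, 5 of them lower and 2 higher in 3D; over all genes the groups did not overlap in 29.2%, with 15.3% lower and 13.8% higher. All values are log2 values from bulk RNA, in which fewer cells of a kind and less RNA per cell cannot be told apart.

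**Figure D1:**
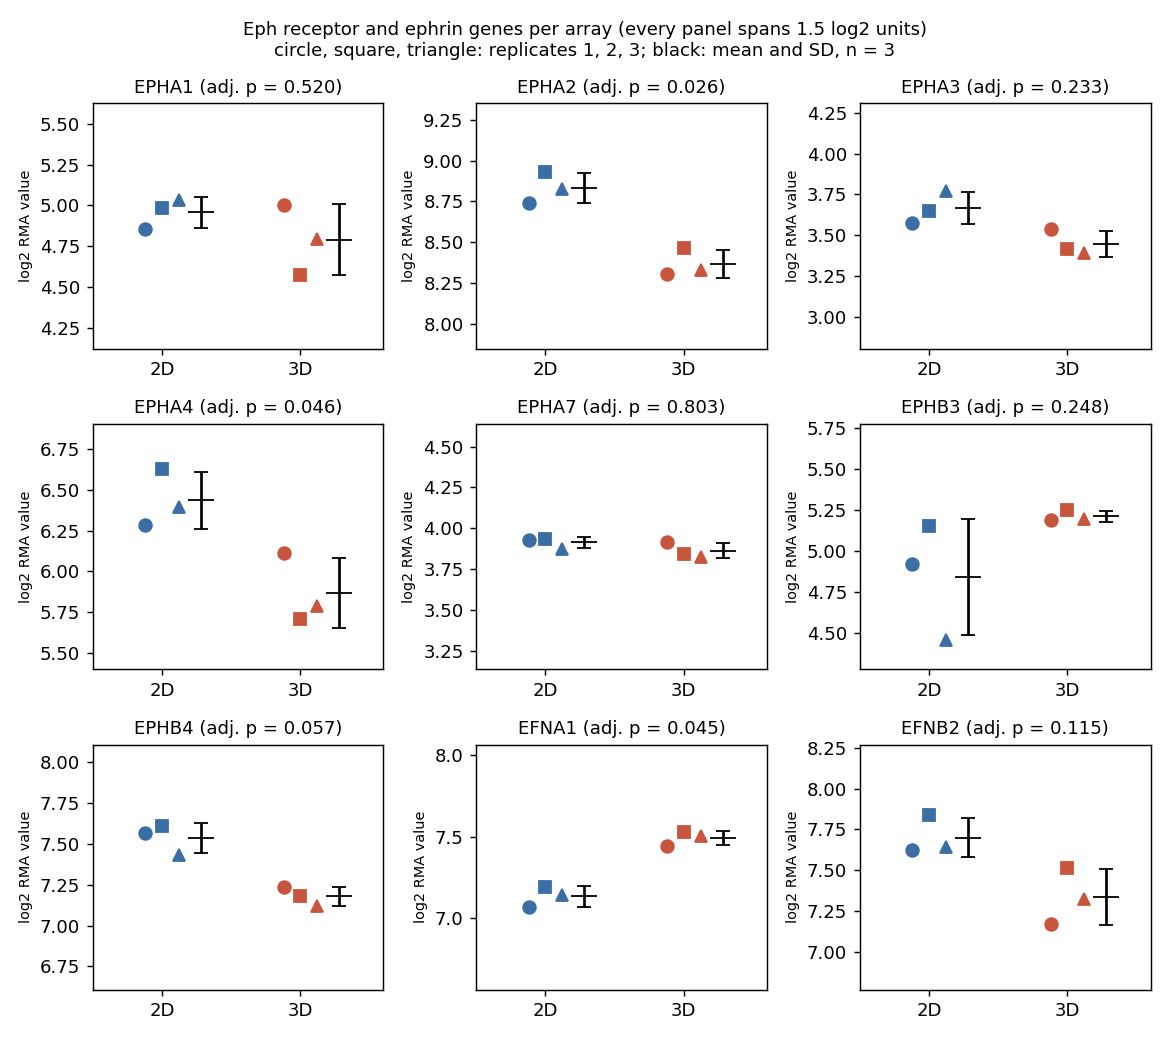
Log2 RMA values (y axis) of the 9 measured genes in each array of the 2D and 3D groups (x axis), with symbols for replicates 1 to 3 and the mean and SD (n = 3) in black; every panel spans 1.5 log2 units. EPHA2 lies between 8.74 and 8.93 in 2D and between 8.31 and 8.47 in 3D, whereas EPHA7 overlaps between the groups.

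Among the class A receptors, EPHA2 showed the clearest separation. EPHA2, the receptor for ephrin-A1 on many epithelial cells, read 8.74, 8.93 and 8.83 in 2D replicates 1, 2 and 3 and 8.31, 8.47 and 8.33 in 3D replicates 1, 2 and 3. All 3D arrays lay below all 2D arrays, with a gap of 0.27 between the nearest arrays. EPHA2 thus fell by 0.46 on the log2 scale (SE 0.099, 95% confidence interval -0.69 to -0.23, limma adjusted p = 0.0256, n = 3 per group), which is 1.38-fold. This change ranked 1693rd by size among the 14884 genes. Leaving out 2D replicate 2 or 3 ended the call (adjusted p = 0.0940 and 0.0816), as did leaving out 3D replicate 2 or 3 (0.0561 and 0.1001), while the change stayed between -0.51 and -0.42.

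EPHA4, a receptor that binds ephrins of both classes, read 6.28, 6.62 and 6.40 in 2D and 6.11, 5.71 and 5.79 in 3D. The groups did not overlap, and 3D replicate 1 lay nearest to the 2D arrays. EPHA4 fell by 0.57 (SE 0.14, interval -0.90 to -0.24, limma adjusted p = 0.0459), which is 1.48-fold and ranked 1196th by size. Leaving out any array except 3D replicate 1 ended the call (adjusted p 0.0717 without 2D replicate 1, 0.146 and 0.117 without 2D replicates 2 and 3, 0.158 and 0.152 without 3D replicates 2 and 3). Without 3D replicate 1 the change was -0.69 at an adjusted p of 0.0175.

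The other 3 class A receptors on the list did not pass. EPHA3, a receptor for ephrin-A5, read 3.58, 3.65 and 3.77 in 2D and 3.54, 3.41 and 3.39 in 3D. The groups were apart by 0.04, and the change was -0.22 (interval -0.45 to 0.01, limma adjusted p = 0.233). EPHA1 read 4.85, 4.98 and 5.04 in 2D and 5.01, 4.57 and 4.80 in 3D, so that 3D replicate 1 lay within the 2D range, and its change was -0.17 (interval -0.47 to 0.13, limma adjusted p = 0.520). EPHA7, a receptor studied mainly in the developing brain, read 3.87 to 3.94 in 2D and 3.83 to 3.92 in 3D. Its change of -0.05 had an interval of -0.25 to 0.15 (limma adjusted p = 0.803), which leaves room for a small difference in either direction. EPHA3 and EPHA7 were dim in both groups, with means below the median of all values in the table (4.33) and above the lower quartile (2.93). RMA values compress the changes of dim probe sets.

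Neither measured class B receptor on the list passed. EPHB4, the receptor for ephrin-B2 in vessel formation, read 7.56, 7.61 and 7.43 in 2D and 7.24, 7.18 and 7.12 in 3D. All 3D arrays lay below all 2D arrays, with a gap of 0.20, and the change was -0.36 (SE 0.095, interval -0.58 to -0.14, limma adjusted p = 0.0565). EPHB4 passed under 2 of 13 alternative settings, a trended robust variance (adjusted p = 0.0278) and testing without dim genes (0.0470). EPHB3, known with EPHB2 for positioning cells along the intestinal crypt, read 4.92, 5.15 and 4.46 in 2D and 5.19, 5.25 and 5.20 in 3D. Its 2D arrays were spread (SD 0.35) and its 3D arrays close together (SD 0.03), with a gap of 0.04 between the groups. The change was 0.37 (interval -0.03 to 0.77, limma adjusted p = 0.248), and it ran from 0.18 to 0.52 when single arrays were left out.

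The ligands on the list are EFNA1, which encodes ephrin-A1, and EFNB2, which encodes ephrin-B2. EFNA1 read 7.07, 7.19 and 7.14 in 2D and 7.44, 7.53 and 7.50 in 3D. The groups did not overlap, with a gap of 0.25. EFNA1 rose by 0.36 (SE 0.089, interval 0.15 to 0.57, limma adjusted p = 0.0446), which is 1.28-fold. Leaving out any array except 3D replicate 1 ended this call (adjusted p 0.124, 0.0952 and 0.121 without 2D replicates 1, 2 and 3, and 0.165 and 0.148 without 3D replicates 2 and 3), although the change stayed between 0.33 and 0.39. Centring the arrays on their medians ended it as well (adjusted p = 0.0552).

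EFNB2 read 7.62, 7.84 and 7.64 in 2D and 7.17, 7.52 and 7.33 in 3D. The groups were apart by 0.10, with 3D replicate 2 nearest to the 2D arrays. The change of -0.36 (SE 0.12, interval -0.64 to -0.08) did not pass (limma adjusted p = 0.115).

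Each ligand was set against the receptor with which it is best known to pair, as the difference of their log2 values within an array. EFNA1 minus EPHA2 was -1.67, -1.74 and -1.69 in 2D and -0.86, -0.94 and -0.83 in 3D. The shift between the group means, 0.82, was larger than the spread within either group (SD 0.03 in 2D and 0.06 in 3D, n = 3), and it ran from 0.80 to 0.85 when single arrays were left out. The exact two-sided permutation test gave p = 0.1 (0.2 adjusted over both pairs), and 0.1 is the smallest p that 3 arrays against 3 allow. The shift is the change of EFNA1 minus that of EPHA2. Both genes were already apart between the groups in opposite directions, which fixed the separation and this p in advance. The pair thus adds no result beyond those of the 2 genes. EFNB2 minus EPHB4 was 0.06, 0.23 and 0.21 in 2D and -0.06, 0.33 and 0.20 in 3D, so the groups overlapped. Its shift of -0.01 gave an exact permutation p of 0.9 (0.9 adjusted), and its sign turned when 2D replicate 2 (0.03), 2D replicate 3 (0.01) or 3D replicate 1 (0.10) was left out. Because probe sets differ in brightness, the size of such a difference in 1 array has no meaning of its own, and only its shift between groups was compared.

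**Figure D2:**
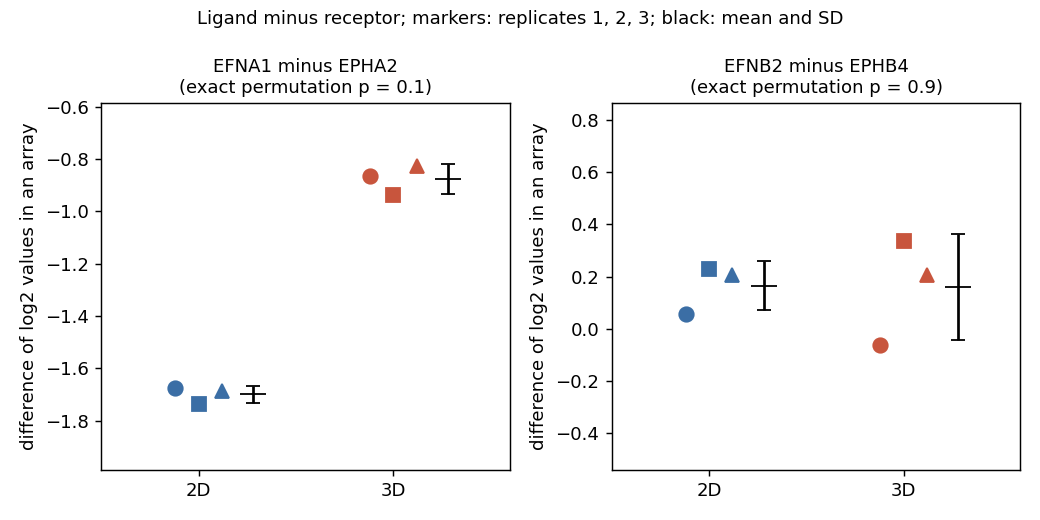
Difference of log2 values within each array (y axis) for EFNA1 minus EPHA2 and EFNB2 minus EPHB4 in 2D and 3D (x axis), with mean and SD (n = 3) in black. EFNA1 minus EPHA2 runs from -1.74 to -1.67 in 2D and from -0.94 to -0.83 in 3D, whereas EFNB2 minus EPHB4 overlaps.

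The rest of the family was taken from a list of 12 further Eph and ephrin genes, all of which were measured. Of these 12, EFNB1 rose and 11 did not pass, with a median change of 0.06. EFNB1, which encodes ephrin-B1, read 6.54, 6.58 and 6.67 in 2D and 7.89, 8.13 and 7.94 in 3D. Every 3D array lay more than 1 log2 unit above every 2D array. EFNB1 rose by 1.39 (SE 0.10, interval 1.15 to 1.63, limma adjusted p = 0.00027), and the change kept its call in all 13 alternatives, with a range of 1.32 to 1.44. The other 11 changes ran from -0.25 for EFNA2 (adjusted p = 0.165) to 0.21 for EPHA8 (adjusted p = 0.354). Among these 11, all 3D arrays lay below all 2D arrays for EFNA2 and for EPHA5 (-0.23, adjusted p = 0.189), and the groups overlapped for the others.

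Over the whole family, 21 of 22 genes were measured, of which 2 rose, 2 fell and 17 did not pass, beside the 10% called over all genes. Of 9 class A receptors 2 fell and 0 rose, with 0 higher at an unadjusted p under 0.05 too, and 7 had a negative estimate (median -0.17). The negative estimates of EPHA6 and EPHA7 were near 0 (-0.01 and -0.05). EPHA5 (means 3.65 in 2D and 3.42 in 3D) was dim like EPHA3 and EPHA7, below the median of all values (4.33). Of 4 measured class B receptors 0 passed (limma), and the estimates were evenly split between signs (median -0.03); at an unadjusted p under 0.05 there was 1, EPHB4. Of 5 A ephrins 1 rose, EFNA1, and the other estimates ran from -0.25 to 0.11. Of 3 B ephrins 1 rose, EFNB1, while EFNB2 and EFNB3 gave -0.36 and -0.22 without passing. The largest change of the family was thus that of EFNB1, outside the list of 10.

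**Figure D3:**
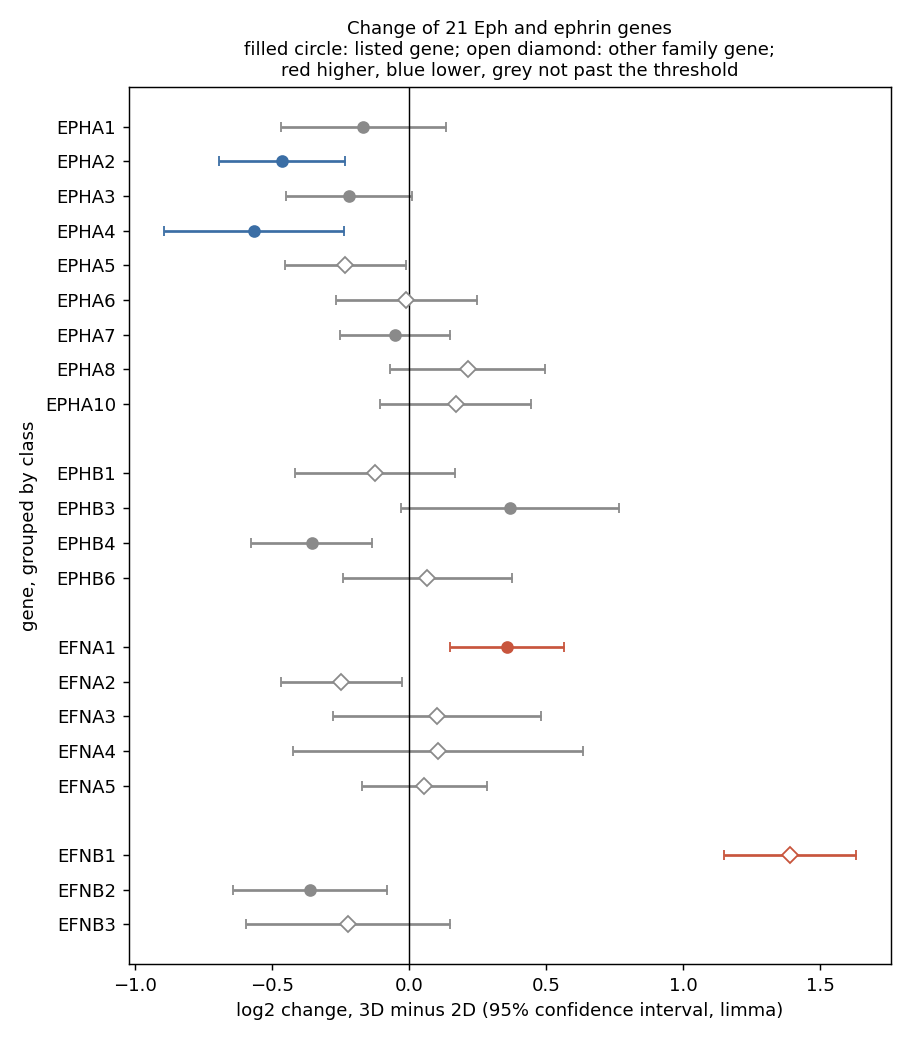
Log2 change, 3D minus 2D, with its 95% confidence interval (x axis) for the 21 measured Eph and ephrin genes grouped by class (y axis); filled circles are the 9 listed genes, open diamonds the other 12, and colour marks the adjusted p under 0.05. EFNB1 stands at 1.39, EPHA4 at -0.57 and EPHA2 at -0.46, and EFNA1 at 0.36.

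The upstream sequences of the receptor that fell with the clearest separation, of its ligand that rose and of the ephrin with the largest change are shown so that their composition can be compared. They are the 250 bases before the annotated start in RefSeq, build GRCh38.p14. Capitals mark the 1 match found to the motif of TEAD factors (GGAATG or its reverse complement), partners of YAP and TAZ. The EPHA2 window is chr1:16156070-16156319 on the minus strand, the EFNA1 window chr1:155127626-155127875 on the plus strand and the EFNB1 window chrX:68828771-68829020 on the plus strand.
EPHA2: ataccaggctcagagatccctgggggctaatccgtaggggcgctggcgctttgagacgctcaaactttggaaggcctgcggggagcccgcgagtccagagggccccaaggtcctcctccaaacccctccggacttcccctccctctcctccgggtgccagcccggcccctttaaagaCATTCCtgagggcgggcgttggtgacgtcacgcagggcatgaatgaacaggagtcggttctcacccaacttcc
EFNA1: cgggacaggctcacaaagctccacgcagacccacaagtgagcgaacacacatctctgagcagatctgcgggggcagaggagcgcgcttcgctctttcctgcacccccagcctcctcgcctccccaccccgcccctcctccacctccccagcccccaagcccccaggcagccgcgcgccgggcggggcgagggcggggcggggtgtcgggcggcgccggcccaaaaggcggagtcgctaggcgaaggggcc
EFNB1: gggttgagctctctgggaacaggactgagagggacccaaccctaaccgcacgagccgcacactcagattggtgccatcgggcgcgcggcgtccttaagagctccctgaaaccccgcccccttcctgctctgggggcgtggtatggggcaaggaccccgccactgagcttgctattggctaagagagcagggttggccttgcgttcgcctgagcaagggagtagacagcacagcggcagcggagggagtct

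The EPHA2 match lies 73 bases before the start, on the opposite strand. Of the 26 windows of 20 family genes in the RefSeq table, 1 held the TEAD motif, while 11.9% of 35116 windows of all genes did. The AP-1 motif TGANTCA, searched on both strands, was in 0 of the 26 family windows and in 6.57% of all windows. The family windows are not all separate stretches: those of EPHB2 overlap each other, as do some of EPHA7. Whether the family shares differ from those of all windows was not tested. The G and C content was 63.2% for EPHA2, 73.2% for EFNA1 and 63.6% for EFNB1, beside a median of 58.0% and quartiles of 46.4% and 68.0% over all windows. Over the family windows it ran from 37.2% for an EPHA6 window to 84.8% for EPHB2. A match is a stretch of letters and no measurement of binding.

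Genes that carry Eph signals inside the cell were taken from 2 further lists, which were put together with earlier results of these data known. Of 26 adaptors, phosphatases and kinases 14 were measured, of which 1 rose, 4 fell and 9 did not pass (median -0.20), beside the 5.23% called higher and 4.77% called lower over all genes. GRB7, an adaptor with an SH2 domain, rose from 7.54 to 8.87 (log2 change 1.33, SE 0.14, limma adjusted p = 0.00123, n = 3 per group), and all its 3D arrays, 8.58 to 9.09, lay above its 2D arrays, 7.44 to 7.61. The kinase gene ABL2 (-0.54, adjusted p = 0.0157), the adaptor gene NCK2 (-0.49, adjusted p = 0.0146), the adaptor gene SHC1 (-0.44, adjusted p = 0.0234) and the kinase gene SRC (-0.39, adjusted p = 0.0418) fell; SRC was named after its value was seen. Without single arrays the calls ended for ABL2 (any 2D array or 3D replicate 3, adjusted p up to 0.0579), NCK2 (2D or 3D replicate 3, up to 0.0647), and SHC1 and SRC (any array except 3D replicate 1, up to 0.0854 and 0.164). Averaging both ABL2 probe sets also ended its call (adjusted p = 0.0815), and repeated quantile normalization ended that of SRC (0.0613). With the replicate number as a block, ABL2, NCK2, SHC1 and SRC did not pass (limma adjusted p = 0.0702, 0.0742, 0.0993 and 0.117). GRB7 still passed with that block (limma adjusted p = 0.0117).

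Of 15 genes of ephrin reverse signalling and of ephrin cleavage 11 were measured, of which 0 rose (limma; 1 higher at an unadjusted p under 0.05), 1 fell and 10 did not pass (median -0.06), a share close to the 10% called over all genes. The metalloprotease gene ADAM19 fell from 6.82 to 6.10 (log2 change -0.71, SE 0.13, limma adjusted p = 0.0142). Its call ended without 3D replicate 2 (0.0598) and with the replicate number as a block (0.0522). The proteases best known for cutting ephrins and Eph receptors did not pass, with -0.20 for ADAM10 (adjusted p = 0.228) and -0.37 for MMP14 (adjusted p = 0.268).

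The other receptor tyrosine kinase genes gave a measure of how far this class of genes moved. Of 44 listed genes 35 were measured, and ERBB2 was not among them. Of the 35, 6 rose, 3 fell and 26 did not pass (25.7% called, beside 10% over all genes; median -0.06). AXL fell by 2.58 (SE 0.10, limma adjusted p = 3.72e-05), and EGFR and FGFR2 fell by 0.73 and 0.70 (adjusted p = 0.00361 and 0.00569), the last 2 named after their values were seen. RET rose by 1.71 (SE 0.19, adjusted p = 0.00136), ERBB4 by 1.20 (SE 0.093, adjusted p = 0.000325) and MST1R by 1.12 (SE 0.16, adjusted p = 0.00504). Averaging both MST1R probe sets gave 0.64. FGFR3 (0.995, adjusted p = 0.00122), ROR1 (0.62, adjusted p = 0.0198) and DDR1 (0.50, adjusted p = 0.0147) also rose, and were named after their values were seen. The calls of ROR1 and DDR1 ended without some single arrays (adjusted p up to 0.0766 and 0.0636), whereas that of FGFR3 held. With the replicate number as a block, DDR1 did not pass (limma adjusted p = 0.0737). Of the 9 Eph and ephrin genes on the list 3 passed (33.3%), with changes of 0.36 to 0.57 in size. Whether the Eph genes differ from the other kinase genes was not tested.

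**Figure D4:**
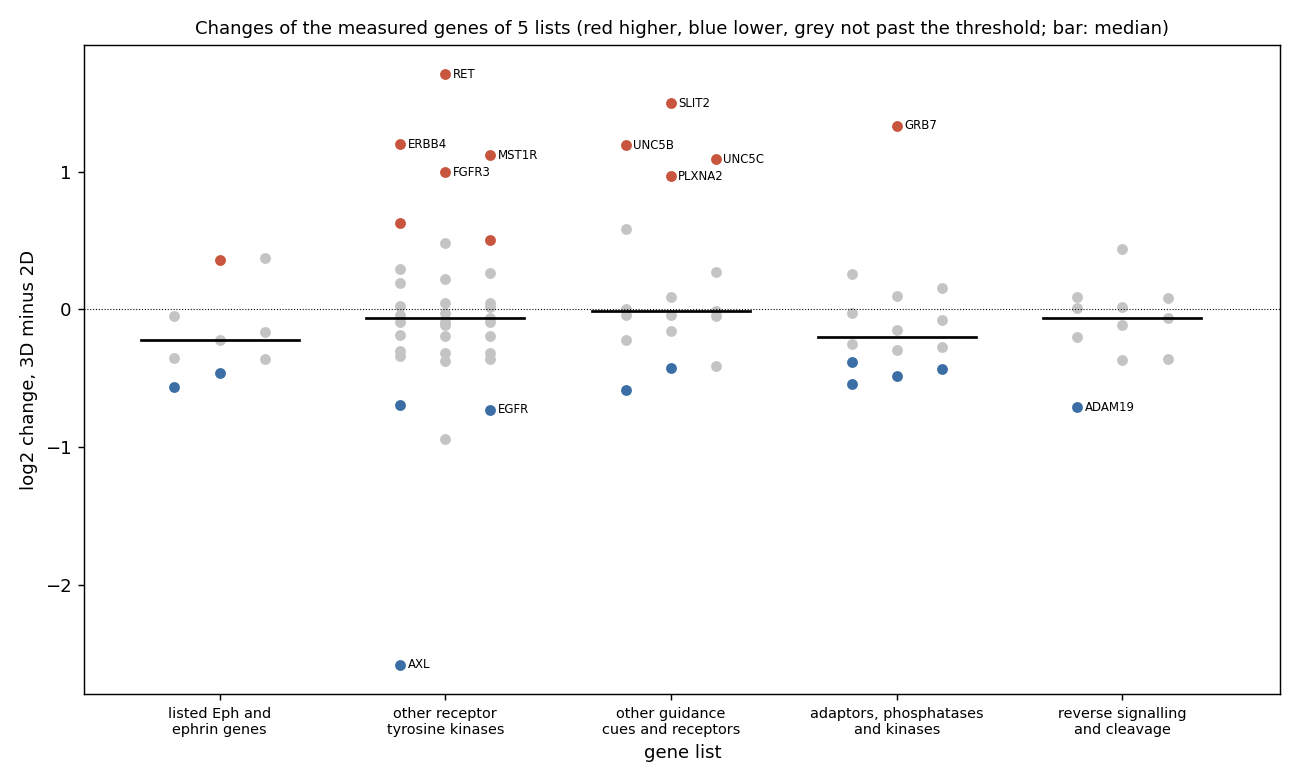
Log2 change, 3D minus 2D (y axis), of each measured gene in 5 lists (x axis), with the list's median as a bar; red and blue points passed the adjusted p under 0.05 as higher or lower in 3D, and grey points did not. The 9 Eph and ephrin genes lie between -0.57 and 0.37, while AXL stands at -2.58 and RET at 1.71.

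The calls of the 3 members depended on single arrays. None of the 3 members' calls held in all 6 fits without 1 array, whereas 12 of the 22 genes called in the 5 other lists did. The direction of each of the 9 members was the same in all 13 alternatives. Several of these could not turn it. Changing only the choice of probe set, the filter, the variance or the block left each member's change as it was. Without 3D replicate 1, the array that stood apart in its group, the counts of members were again 1 higher and 2 lower.

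**Figure D5:**
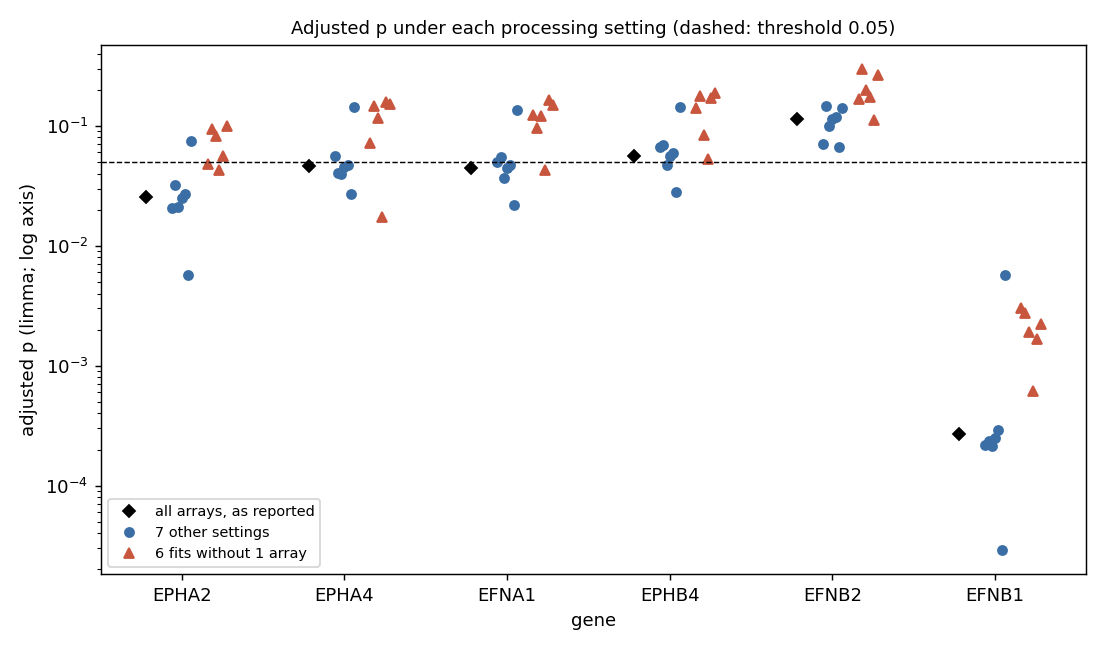
Adjusted p from limma on a log axis (y axis) for 5 listed genes and EFNB1 (x axis), with all arrays as reported (diamond), in 7 other settings (circles) and in 6 fits without 1 array (triangles); the dashed line is 0.05. EPHA2, EPHA4, EFNA1 and EPHB4 have points on both sides of the line, and EFNB1 stays at or below 0.00573.

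Some facts of the whole series bear on these values. Correlations across genes ran from 0.991 to 0.993 among the 2D arrays, while 3D replicate 1 correlated with the other 3D arrays at 0.988 and these with each other at 0.995. Of 10 carcinoma epithelium markers 8 were measured, without ERBB2 and MUC16, of which EPCAM and KRT19 rose, KRT7 fell and 5 did not pass. Of these 5, PAX8 (means 10.18 in 2D and 10.34 in 3D) and KRT18 (9.61 and 10.06) were bright. MSLN (6.63 and 7.03), KRT8 (5.66 and 5.82) and WT1 (5.25 and 5.20) were lower. The summed log2 level of the 8 was 58.6 to 59.1 in 2D and 62.3 to 64.2 in 3D. Of 7 leukocyte markers 3 were measured, without PTPRC, and of these LYZ (1.83) and CD68 (0.68) rose, whereas CD14 gave -0.41 without passing (limma adjusted p = 0.168); the summed log2 level of the 3 was 16.0 to 16.5 in 2D and 17.7 to 19.2 in 3D. Of 7 fibroblast and endothelial markers 3 were measured, of which PECAM1 rose (1.27). DCN and VWF gave 0.12 and -0.04 without passing (limma adjusted p = 0.515 and 0.908). DCN lay below the lower quartile of all values in both groups (means 2.45 and 2.57). The summed log2 level of the 3 was 10.3 to 10.9 in 2D and 11.7 to 12.3 in 3D, and most of that rise was PECAM1. The table has no detection calls, so no marker could be read as being at 0. The part of these shifts in the changes of the Eph and ephrin genes was not tested.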

How the data were processed

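The authors' deposited values are on a log2 scale, as judged from their range, and cover 53617 probe sets and 6 arrays. RMA made them, per the submitters' processing notes; version and probe grouping: not given in the sources used here. RMA corrects background, equalises array distributions and summarises probe sets. Labelled material came from 100 ng of total RNA; the labels' kit (3′ IVT) and the Gene ST annotation do not match, which was not settled. The number of arrays limits the precision.

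Of the probe sets 16098 carried 1 symbol, 0 several and 37519 none; all 16098 identifiers matched the RefSeq table (GRCh38.p14), used for current symbols. For each of 14884 genes the probe set with the highest mean was fitted with limma 3.58.1 (R 4.3.3), group only, two-sided, Benjamini-Hochberg over all genes, threshold 0.05. The fit was checked on simulated data with 50 genes changed at each size. It called 20% of genes raised 1.5-fold, 68% at 2-fold and 96% at 3-fold. Far fewer genes were changed there than were called in the real data, which makes the adjustment stricter, so these shares can differ here. A gene that did not pass can still have changed by as little as the members did. Members and lists were chosen with earlier results of these data known. All 10 members are named, and in each list up to 4 called genes with the largest change; others are marked; 1 list is not reported here. Alternatives were repeated quantile normalization, median centring, a filter on dim probe sets (25th percentile), averaging probe sets or taking the most variable one, trended robust variance, a replicate block and leaving out each array.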

Additional observations from a re-analysis of the deposited data

How the results depend on the processing

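The 9 members kept their direction in all 13 alternatives, several of which leave the change of a gene with 1 probe set as it was. The counts of calls did not hold. Members higher in 3D numbered 0 after centring on array medians and 0 to 1 without single arrays; members lower in 3D numbered 1 after repeated quantile normalization, in which EPHA4 did not pass (adjusted p = 0.0556), and 0 to 2 without single arrays. The 1488 genes called over the whole table became 775 to 1899 without single arrays. No label says whether a replicate number marks a shared culture or day. Deviations of same-numbered arrays from their group means correlated at -0.28, -0.06 and -0.18, and 0 of 6 arrays correlated best with its own number. With 3 arrays per group, such correlations cannot decide whether the numbers pair the arrays. With the replicate number as a block, 0 members were higher, 0 were lower and 760 genes were called. The EFNB2 minus EPHB4 shift of -0.01 ran from -0.094 to 0.10 without single arrays, and changes near 0 turned sign in the same way for EPHA6 (-0.061 to 0.073), EPHB6 (-0.071 to 0.15), EFNA3 (-0.018 to 0.26) and EFNA4 (-0.088 to 0.34). The number of genes called rose to 1899 without 3D replicate 1 and fell without each of the other arrays. The cause of these differences was not tested. EFNB1, GRB7, AXL, RET, ERBB4, MST1R, FGFR3, EGFR, FGFR2, SLIT2 and PLXNA2 kept their calls in all alternatives. The changes of single genes, these and the members included, and the list counts gave 702 values under the alternatives. Of these values, 594 kept direction and call or, for a count, stayed within 1.5 times the reported one. Part of the 594 was fixed in advance, because several alternatives cannot alter the change of a gene with 1 probe set. Genes that did not pass and counts of 0 were also tallied as kept where they stayed so. The 594 is thus no measure of how firm the calls are. Counts over the lists were chosen after seeing the data.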

Other observations

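Other guidance genes also differed between the groups. Of 35 listed genes of the semaphorin, plexin, Slit and netrin systems 17 were measured, without any semaphorin or Robo gene, and of these 4 rose, 2 fell and 11 did not pass (median -0.02, beside the 10% called over all genes). SLIT2, a secreted ligand of Robo receptors, rose from 7.33 to 7.39 in the 2D arrays to 8.77 to 9.04 in the 3D arrays (log2 change 1.497, SE 0.11, limma adjusted p = 0.00025, n = 3 per group). The netrin receptor genes UNC5B and UNC5C rose by 1.19 and 1.09 (adjusted p = 0.0241 and 0.0137), and the plexin gene PLXNA2 rose by 0.96 (adjusted p = 0.00361). The semaphorin co-receptor genes NRP1 and NRP2, named after their values were seen, fell by 0.42 and 0.59 (adjusted p = 0.0314 for both). UNC5B did not pass without 2D replicate 1 or 2 or 3D replicate 2 or 3 (adjusted p up to 0.086), NRP1 without any array except 3D replicate 1 (up to 0.126) and NRP2 without any array except 2D replicate 2 (up to 0.11). UNC5C, NRP1 and NRP2 did not pass with the replicate number as a block (limma adjusted p = 0.072, 0.103 and 0.104).

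The genes EFNA4, EFNA3 and EFNA1 follow each other on chromosome 1 with no other coding gene between them in the RefSeq table. EFNA1 rose by 0.36, while EFNA3 and EFNA4 gave 0.10 (adjusted p = 0.787) and 0.11 (adjusted p = 0.842), with groups that overlapped for both. Whether the changes of the 3 neighbours differ was not tested.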
